A study of Mus musculus with 2 samples.

Results

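Among donor-derived macrophages sorted from the lungs of bone-marrow chimeric mice, 437 of 4570 kept cells were Mrc1-low, complement C1q-high cells with RNA of Cd207, H2-M2, Cd72 or Lilra5. A member was a kept cell with at most 1 UMI (unique molecular identifier, 1 counted RNA molecule) of Mrc1 and at least 10 UMIs of C1qa, C1qb and C1qc together. It also had at least 2 UMIs of Cd207, H2-M2, Cd72 and Lilra5 together, fewer than 3 of Mmp12 and Mmp13 together, and fewer than 5 of Fn1. These measured UMIs chose the cells, so the levels of the 11 genes in members against other cells are description. The members were 296 of 2674 Tgfbr2-KO cells and 141 of 1896 control cells.

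The study compared marrow-derived cells that had refilled the lung with or without TGF-beta receptor 2. In the Tgfbr2-KO group the donor marrow was LyzM-Cre Tgfbr2 fl/fl, and in the control group it was Tgfbr2 fl/fl. Hosts of both groups were IM-DTR mice that had been irradiated and were CD45.1+CD45.2+. In these mice diphtheria toxin kills interstitial macrophages, and 50 ng of it was given 10 days before the lungs were taken. Donor cells were gated as CD45.1-CD45.2+, which leaves out surviving host cells, and as Ly6G-, SiglecF-, CD11b+ and CD64+ with low side scatter, from 5 mice pooled per genotype, and run as 1 droplet library. LyzM-Cre acts across myeloid cells, monocytes and neutrophils included, and not in interstitial macrophages alone. It is knocked into Lyz2, so that locus differs between the groups by design, and mice of a pool cannot be told apart. There was 1 pool per genotype and no replicate: no test was possible, no p-value is given, and every interval below covers counting error only, not differences between mice or between sorts. The pools were told apart by a hashtag, a short DNA barcode on an antibody against a mouse surface protein, shown here because each cell's genotype rests on it:
Tgfbr2-KO pool, B0303: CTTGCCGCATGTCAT
Control pool, B0301: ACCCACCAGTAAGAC
Member cells of the Tgfbr2-KO pool had a median of 1012 UMIs of B0303 and 32 of B0301, and control members had 58 of B0303 and 456 of B0301.

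Interstitial macrophages live in the lung tissue around airways, vessels and nerves, outside the air spaces, and present antigen and make cytokines there. They are commonly divided by the mannose receptor CD206, which Mrc1 encodes, into CD206+ cells near vessels and CD206- cells with high MHC class II. TGF-beta signals through a receptor pair of TGFBR1 and TGFBR2 to SMAD proteins and is known to restrain inflammatory genes in macrophages. Cd207 encodes langerin, the lectin of Langerhans cells and some lung dendritic cells. H2-M2 encodes a non-classical MHC class I chain, Cd72 a lectin-like receptor with an inhibitory motif, best known on B cells, and Lilra5 an activating receptor of myeloid cells.

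Most members had entered by Cd72 and not by Cd207 or H2-M2, so a name after Cd207 and H2-M2 covers a smaller number of them. A Cd72 UMI was found in 276 of 296 Tgfbr2-KO members and 124 of 141 control members. Cd207 was found in 38 Tgfbr2-KO members and 26 control members, and H2-M2 in 69 and 48. Cd72 was the sole marker gene with UMIs in 133 Tgfbr2-KO members and 29 control members, while all 4 genes were found in 9 Tgfbr2-KO members and 8 control members. The cells with Cd207 RNA were mostly elsewhere: 330 kept cells of both pools had a Cd207 UMI and 64 of them were members, while 202 had 2 or more Mrc1 UMIs and 162 had 3 or more UMIs of Mmp12 and Mmp13. Of 800 kept cells with an H2-M2 UMI, 117 were members. The cells are therefore called members here, after the rule, with Cd72 as the leading gene.

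Interstitial macrophage genes were high in members, as they were in other kept cells. Most listed genes of lymphocytes, neutrophils and alveolar macrophages were low or at 0 in members, and some monocyte and dendritic cell genes were found. The 18 genes of an interstitial macrophage core list, led by the lipid carrier gene Apoe, the surface gene Ms4a7 and the lipopolysaccharide receptor gene Cd14, summed to 14713 UPM in Tgfbr2-KO members and 25542 UPM in control members. UPM is UMIs summed over the cells of a group per 1000000 gene UMIs of that group. In other kept cells the core list summed to 16059 UPM in the Tgfbr2-KO pool and 24188 UPM in the control pool. The 6 Langerhans markers other than Cd207 (Epcam, Cldn1, Cdh1, Itgae and Cd24a among them) summed to 10.7 UPM in Tgfbr2-KO members and 0.976 UPM in control members, where 5 of the 6 were at 0. Lists of 13 alveolar macrophage, 10 neutrophil, 12 T or NK cell, 7 B or plasma cell and 13 structural genes each summed to between 40.9 and 146 UPM in Tgfbr2-KO members and between 65.4 and 172 UPM in control members. Single genes carried most of these sums, such as Abcg1, Il1r2, Il7r and Ighm, while the neutrophil gene Ly6g, the T cell gene Cd3e and the alveolar gene Car4 were at 0 in both pools. Other genes of the same lists were found in Tgfbr2-KO and control members, such as Csf3r (49.9 and 26.4 UPM), Cd3d (0.274 and 0.976 UPM) and Chil3 (5.49 and 4.88 UPM). The sort had also gated out Ly6G+ and SiglecF+ cells. Dendritic cell genes (14) summed to 237.5 UPM in Tgfbr2-KO members and 187.5 UPM in control members, against 239 and 253 UPM in other kept cells. Among them Flt3, the growth factor receptor gene of these cells, stood at 3.29 and 2.93 UPM in members. Xcr1 and Clec9a, which mark type 1 dendritic cells, were uneven. Xcr1 stood at 11.2 UPM in Tgfbr2-KO members and 0.976 UPM in control members, against 3.32 and 0.786 UPM in other kept cells. Clec9a stood at 46.9 and 11.7 UPM in members, against 28.4 and 4.91 UPM in other kept cells. Batf3, a transcription factor gene of the same cells, stood at 63.6 and 46.9 UPM in members, against 63.8 and 37.4 UPM. Classical monocyte genes (13) summed to 2151 and 1908 UPM in Tgfbr2-KO and control members, against 3744 and 2557 UPM in other kept cells, and patrolling monocyte genes (12) to 764 and 664 UPM, against 886 and 806 UPM. The part of such cells in the results was not tested.

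Members made up 11.1% of kept Tgfbr2-KO cells (exact 95% Clopper-Pearson interval 9.90 to 12.3) and 7.44% of kept control cells (6.30 to 8.71). The groups differed in depth, with a median of 11725 UMIs in a Tgfbr2-KO member and 6562 in a control member, and a rule of UMI minimums and maximums reads depth. When every cell was thinned at random to 3000 UMIs and the rule applied again, the shares were 14.3% (370 of 2591 cells) in the Tgfbr2-KO pool and 11.9% (216 of 1816) in the control pool. The part of the members with a Cd207 or H2-M2 UMI was 3.40% of kept Tgfbr2-KO cells (2.75 to 4.16) and 3.43% of kept control cells (2.66 to 4.35). The part with Cd72 or Lilra5 alone was 7.67% (6.69 to 8.74) and 4.01% (3.17 to 4.99). At full depth the higher share in the Tgfbr2-KO pool thus lay in the cells with Cd72 or Lilra5 alone, and this split was not repeated in thinned cells. At equal depth the shares of all members lay closer together. Thinned cells can pass UMI maximums that they failed at full depth. Thinned members numbered 370 and 216, against 296 and 141 at full depth, so the 2 sets of cells differ.

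The steps of the rule showed where the pools parted. Of the kept cells, 81.6% in the Tgfbr2-KO pool and 90.7% in the control pool passed the C1q minimum. With at most 1 Mrc1 UMI as well, 24.4% and 23.8% were left. The Fn1 term left 23.9% and 22.2%, and the Mmp term then left 18.0% and 13.2%. The C1q minimum thus left a higher share in the control pool, and the Mmp term widened the higher share left in the Tgfbr2-KO pool. After the Mmp term 482 Tgfbr2-KO cells and 251 control cells were left. Of these, 61.4% (56.9 to 65.8) and 56.2% (49.8 to 62.4) had the 2 marker UMIs. Just inside the Mrc1 limit, with 1 UMI, were 121 Tgfbr2-KO and 70 control members; just outside it, with 2, were 89 and 73 cells that met every other term. Just inside the marker minimum, with 2 UMIs, were 45 and 35 members, and just outside, with 1, were 56 and 48 cells. Many cells thus lay near both limits of the rule.

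**Figure D1:**
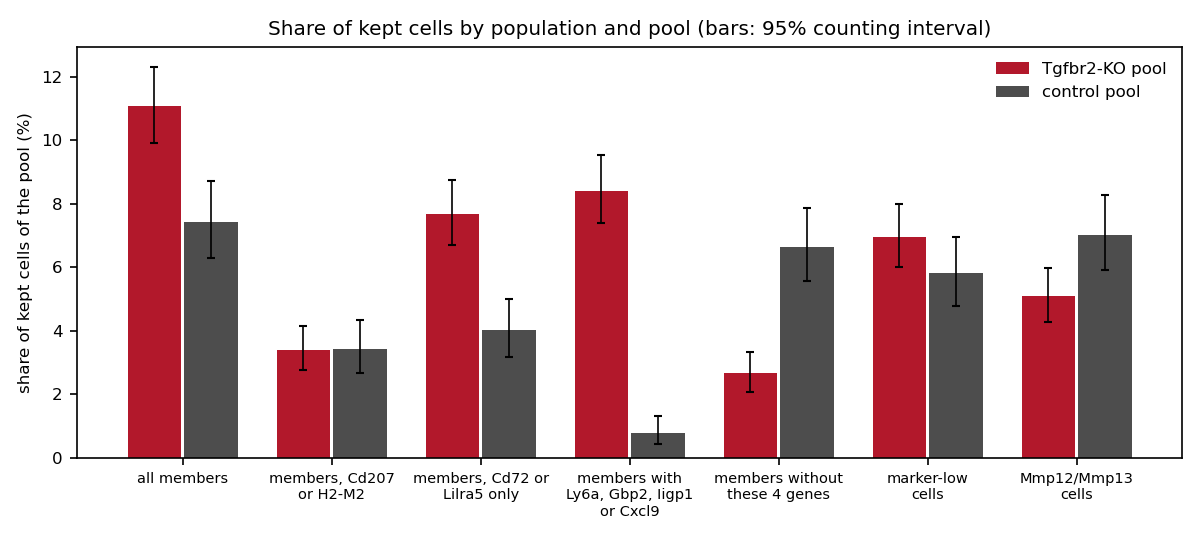
Percentage of kept cells of each pool that were members, whole and split by the genes named under the bars. Also shown are cells that met every other term of the rule but had fewer than 2 marker UMIs (marker-low) or 3 or more Mmp12 and Mmp13 UMIs. The Tgfbr2-KO pool is left of the control pool, with exact 95% Clopper-Pearson intervals for counting error. The bars for members with Cd207 or H2-M2 are level between the pools (3.40% and 3.43%), and those for members with Cd72 or Lilra5 only are not (7.67% and 4.01%).

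The 4 marker genes did not move together between the genotypes. Cd207 (ENSMUSG00000034783, chromosome 6, 83671207 to 83677857 of GRCm38.p6) stood at 29.9 UPM in Tgfbr2-KO members (exact Poisson interval 24.5 to 36.1) and 115 UPM in control members (95.4 to 138), 3.85-fold lower. H2-M2 (ENSMUSG00000016283, chromosome 17, 37480851 to 37483554) stood at 155 UPM (142 to 168) and 299.8 UPM (267 to 335), and Lilra5 (ENSMUSG00000070873, chromosome 7, 4237643 to 4243690) at 56.8 and 132 UPM. Cd72 (ENSMUSG00000028459, chromosome 4, 43447724 to 43455102) went the other way, with 635 UPM (610 to 662) in Tgfbr2-KO members and 408 UPM (370 to 449) in control members. Cx3cr1, the fractalkine receptor and a marker of CD206- interstitial macrophages that the rule did not use, stood at 261 UPM in Tgfbr2-KO members and 385 UPM in control members, 1.47-fold lower (1.31 to 1.66). Because the rule needs 2 UMIs of the 4 markers together, their levels in members are partly set by it.

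Cd207 UMIs sat in few cells: 3 cells held 34.9% of them in Tgfbr2-KO members and 48.3% in control members. In cells thinned to 3000 UMIs, Cd207 was found in 8.16% of Tgfbr2-KO members and 13.6% of control members. H2-M2 was found in 13.9% and 28.6% of thinned members, Cd72 in 74.8% and 65.0%, and Lilra5 in 17.7% and 36.4%. Free RNA was read from Ly6c2 cells with low C1q, which should lack these genes (174 Tgfbr2-KO and 23 control cells; median 10687.5 and 9389 UMIs). Thinned in the same way, they held Cd207 in 0% of cells in both pools, which allows up to 2.13% in the Tgfbr2-KO pool and 14.8% in the control pool by the exact binomial interval, and Cd72 in 3.51% and 8.70%. Among the control cells of this kind no Cd207 or H2-M2 UMI was found in 23 cells, which sets the background poorly there. Outside the members the same genes were also lower in the Tgfbr2-KO pool: in other kept cells Cd207 stood at 15.8 and 40.8 UPM and H2-M2 at 102 and 140 UPM, while Cd72 stood at 219 and 139 UPM.

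**Figure D2:**
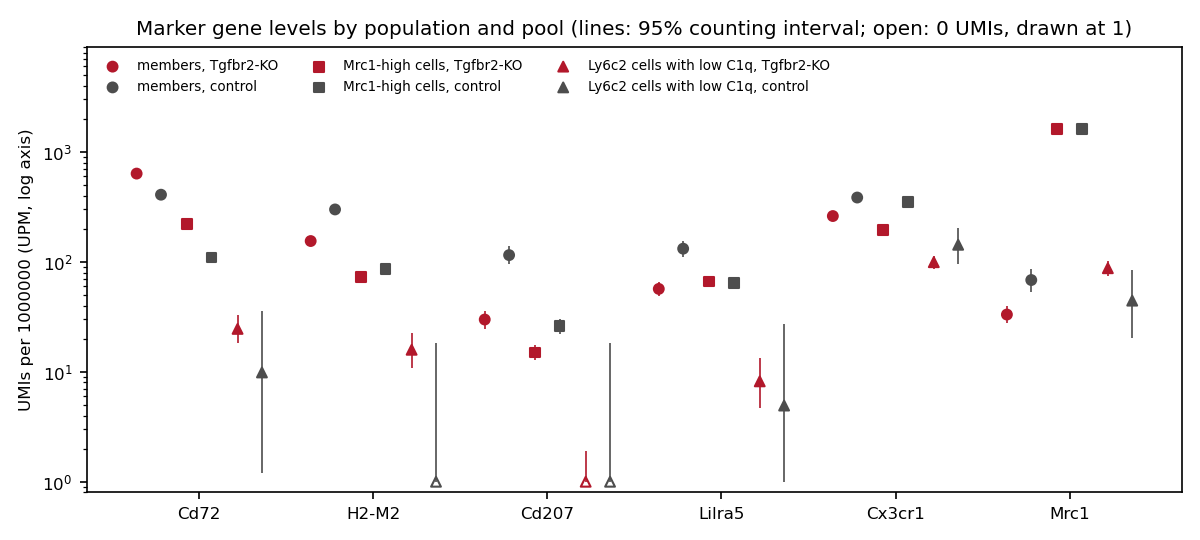
Levels of the 4 marker genes, Cx3cr1 and Mrc1 (UPM, log axis) in members, Mrc1-high cells (at least 5 Mrc1 UMIs) and Ly6c2 cells with low C1q, Tgfbr2-KO left of control, with exact 95% Poisson intervals and open symbols where no UMI was found. In members Cd72 is higher in the Tgfbr2-KO pool (635 against 408 UPM) and Cd207, H2-M2, Lilra5 and Cx3cr1 are lower.

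Tgfbr2 itself (ENSMUSG00000032440, chromosome 9, 116087695 to 116175363) was counted at 179 UPM in Tgfbr2-KO members and 196 UPM in control members, 1.09-fold lower (0.930 to 1.28). Which exon is floxed was not stated, and a 3′ count need not cover it; the values above are no measure of deletion. At the locus of the Cre, Lyz2 (ENSMUSG00000069516, chromosome 10), the main lysozyme gene of macrophages, stood at 4313 UPM in Tgfbr2-KO members and 13736 UPM in control members, 3.18-fold lower (3.11 to 3.26). The neighbouring Lyz1 (ENSMUSG00000069515) stood at 821 and 59.6 UPM, 13.8-fold higher (10.7 to 18.1). Lyz1 and Lyz2 are close paralogs, and like the Ly6, Serpina3 and H2 families named below their reads may have been divided unevenly between copies.

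The leading difference between the genotypes in members was the interferon response. Of 4 genes that interferons induce (Ly6a, Gbp2, Iigp1 and Cxcl9, picked after their values were seen), at least 1 UMI was found in 225 of 296 Tgfbr2-KO members, 76.0% (70.7 to 80.8), and in 15 of 141 control members, 10.6% (6.08 to 16.9). With cells thinned to 3000 UMIs the shares were 72.4% and 5.71%. All 4 genes were found in 84 Tgfbr2-KO members and 1 control member. In other kept cells the thinned shares were 47.1% and 9.07%. In Mrc1-high cells (at least 5 Mrc1 UMIs, with the C1q and Fn1 terms of the rule) they were 39.1% and 9.78%. Cells that met every other term but had fewer than 2 marker UMIs, called marker-low cells, reached 76.7% and 4.76%. Cells that met every other term, the marker minimum included, but had 3 or more Mmp12 and Mmp13 UMIs were called Mmp cells. They reached 22.8% and 4.51%. No cell type known to lack these genes was at hand to read free RNA from. Among control members the thinned share was 3.08% with Cd207 or H2-M2 (2 of 65 cells) and 8.00% with Cd72 or Lilra5 alone (6 of 75). The high share in the Tgfbr2-KO pool was therefore found both in members and in marker-low cells, and was close among members with Cd207 or H2-M2 (71.4%) and those with Cd72 or Lilra5 alone (72.9%).

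Gene by gene, 1625 genes were counted in members, each with 100 UMIs or more summed over the pools and reaching 100 UPM in Tgfbr2-KO or control members. At least 1.5-fold higher in Tgfbr2-KO members were 309 (19.0%), and at least 1.5-fold lower were 190 (11.7%); the median log2 ratio was 0.12. Scaled by the median of ratios in place of total UMIs, the split was 244 higher and 249 lower, so the balance of directions depends on the scaling. In Mrc1-high cells, of 1707 genes, 116 were higher and 115 lower by the same fold. Over all other kept cells, of 1731 genes, 187 were higher and 149 lower.

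Interferon-induced genes headed the higher side. Of the 15 interferon response genes counted, 14 were higher and none was lower, with a median log2 ratio of 2.59. Cxcl9, a chemokine that attracts T cells, stood at 3609 UPM in Tgfbr2-KO members and 308 UPM in control members, where 9 cells held it and 3 of them had 97.5% of its UMIs. Ly6a, which encodes the surface protein Sca-1, stood at 776 UPM (748 to 805) in 167 Tgfbr2-KO members and 16.6 UPM (9.67 to 26.6) in 5 control members, 46.7-fold higher (29.1 to 80.4). Iigp1, an interferon-induced GTPase, stood at 245 and 7.81 UPM, a ratio of 31.4 (15.8 to 72.8). The guanylate-binding protein gene Gbp2 stood at 470 and 38.1 UPM. Irf1, a transcription factor gene of this response, lay in the same direction, at 193 and 32.2 UPM. In Mrc1-high cells 10 of 11 counted genes of this list were higher, with a median log2 ratio of 1.84. Over all other kept cells 14 of 14 were higher, with a median of 2.72, and Ly6a was 62.4-fold higher. The interferon difference was thus not particular to members.

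MHC class I genes, which carry peptides to the surface for CD8 T cells, were higher as a whole list: 17 of 17 counted, with a median log2 ratio of 1.47. The peptide pump gene Tap1 stood at 222 UPM in Tgfbr2-KO members and 32.2 UPM in control members, the immunoproteasome gene Psmb9 at 411 and 104 UPM, and the classical class I gene H2-K1 at 2937 and 1350 UPM. In Mrc1-high cells 12 of 13 were higher, with a median of 0.92, and over all other kept cells 14 of 14, with a median of 1.26. MHC class II genes were not past the fold in either direction (0 of 6; median 0.10): Cd74, the invariant chain, stood at 28369 and 29998 UPM, and H2-Aa at 13168 and 13947 UPM.

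Ccl5, Ccl8, Cfb and Saa3 were among the genes with the highest ratios. Ccl5, a chemokine for T cells and monocytes, stood at 1464 UPM in Tgfbr2-KO members and 53.7 UPM in control members, 27.3-fold higher (20.9 to 36.2), in 155 and 19 cells. Ccl8, a chemokine ligand of CCR8 in mice, stood at 1267 and 60.5 UPM, 20.9-fold higher (16.3 to 27.4), in 134 and 20 cells. The complement gene Cfb stood at 109 and 1.95 UPM, 55.8-fold higher, with an interval of 15.3 to 462 since only 2 control cells held it. Saa3, a serum amyloid A gene, had 121 UPM in Tgfbr2-KO members and 0 in control members, where 3 counts would be 2.93 UPM, but 3 cells held 95.7% of its UMIs. The complement list outside C1q had 4 of 6 genes higher (C3, Cfp, Cfb and Itgax) and 2 lower, the anaphylatoxin receptor genes C3ar1 at 135 and 326 UPM and C5ar1 at 155 and 365 UPM.

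The other highest ratios were held by genes of several kinds. Ly6i, a Ly6 family gene, stood at 292 UPM in Tgfbr2-KO members and 2.93 UPM in control members, 99.5-fold higher, with an interval of 34.0 to 483 for 3 control UMIs. Acod1, whose enzyme makes itaconate, stood at 121 and 3.91 UPM. The growth factor gene Nrg1 stood at 104 and 3.91 UPM. Acod1 and Nrg1 each had UMIs in 1 control cell, so the size of these folds rests on few molecules. The fatty acid carrier gene Fabp5 stood at 610 and 41.0 UPM, with 47.7% of the Tgfbr2-KO UMIs in 3 cells. Serpina3g, a serine protease inhibitor gene, stood at 139 and 9.76 UPM in 118 Tgfbr2-KO members and 2 control members.

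Classical monocyte genes were higher in part. Of 7 counted genes of that list 4 were higher, namely Ly6c2 (130 UPM in Tgfbr2-KO members and 4.88 UPM in control members), Plac8 (255 and 42.0 UPM), Thbs1 (116 and 9.76 UPM) and Msrb1, and none was lower. Inside the fold were Ccr2 (228 and 250 UPM), S100a4 (523 and 754 UPM) and S100a6 (677 and 771 UPM). The interferon-induced gene Cxcl9 stood at 2362 UPM in Tgfbr2-KO and 29.6 UPM in control Ly6c2 cells with low C1q. The sum over all 13 genes, given above for members, was 14374 UPM in Tgfbr2-KO and 20217 UPM in control Ly6c2 cells with low C1q. Ly6c2, the defining gene, stood at 2427 UPM in the Tgfbr2-KO cells of that kind, and 41.6% of its UMIs in Tgfbr2-KO members lay in 3 cells. The part of such cells, or of doublets with them, in the result was not tested.

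Glycolysis genes were also higher, and Fc receptor genes in part. Of 11 counted glycolysis genes 9 were higher and none lower (median 0.89), for example the pyruvate kinase gene Pkm with 431 UPM in Tgfbr2-KO members and 179 UPM in control members, and Hif1a, a transcription factor gene that drives the pathway, with 193 and 51.8 UPM. Of 6 Fc receptor genes 3 were higher: Fcgr1, which encodes the CD64 used in the sort, at 244 and 102 UPM, Fcgr4 at 325 and 63.5 UPM, and the inhibitory receptor gene Fcgr2b. The other 3 were within the fold, with Fcgr3 at 347 and 410 UPM.

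Genes of resting macrophages and of the inflammatory and stress programmes were on the lower side. Pf4, a chemokine gene of CD206+ macrophages and platelets, stood at 87.2 UPM in Tgfbr2-KO members (77.9 to 97.3) and 784 UPM in control members (731 to 840), 8.99-fold lower (7.89 to 10.3). Fcrls, a homeostatic gene known from microglia, stood at 19.7 and 117 UPM, and the growth factor gene Igf1 at 40.3 and 160 UPM. Of 9 counted homeostatic genes 5 were lower and none higher, including Trem2, a lipid-sensing receptor gene (143 and 455 UPM), the protease inhibitor gene Cst3 (3312 and 6401 UPM) and the inhibitory lectin gene Cd33 (30.2 and 115 UPM). In the interstitial macrophage core list 8 of 17 were lower, among them Apoe (4286 and 11595 UPM), and 2 were higher, Fcgr1 and Aif1.

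The neutrophil chemokine genes Cxcl1 and Cxcl2 were lower. Cxcl2 stood at 2571 UPM in Tgfbr2-KO members and 10796 UPM in control members, 4.20-fold lower (4.08 to 4.32), and Cxcl1 at 65.8 and 444 UPM, 6.75-fold lower (5.76 to 7.93). The cytokine gene Il10, whose product limits inflammation, stood at 21.1 and 113 UPM, 5.36-fold lower (3.99 to 7.25). Of 15 inflammatory cytokine genes 10 were lower and 1, Cd40, higher, with Tnf at 228 and 632 UPM and the inflammasome gene Nlrp3 at 254 and 716 UPM. Chemokine genes were divided, with 8 of 15 lower, including Ccl2 (583 and 1782 UPM), and 4 higher (Ccl5, Ccl8, Cxcl9 and Cxcl10). Immediate-early and heat-shock genes, which tissue dissociation is known to induce, moved with these lists: 8 of 13 were lower and none higher (median -0.73), for example Jun at 206 and 518 UPM. The part of dissociation in the inflammatory result was not tested.

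Genes near the targeted pathway were mixed. Of 11 counted TGF-beta target genes 6 were lower (Skil, Pmepa1, Id2, Id3, Itgav and Ldlrad4) and 3 higher (Thbs1, Tgfbi and Spp1), with a median of -0.79. Skil and Pmepa1, which encode feedback inhibitors of the pathway, stood at 291 and 508 UPM and at 122 and 236 UPM. The partner receptor gene Tgfbr1 stood at 193 and 352 UPM; it was the sole gene past the fold of 4 counted in the pathway list. The other genes among the 12 with the lowest ratios were St18, a zinc finger transcription factor gene (46.1 and 216 UPM), Hpgd, whose enzyme breaks down prostaglandins (26.9 and 111 UPM), the membrane protein gene Emp1 (52.7 and 212 UPM), the small GTPase gene Rhoc (30.2 and 118 UPM) and Errfi1, an inhibitor of the EGF receptor (85.6 and 311 UPM). Of the Nrf2 and metallothionein list, which answers oxidants and metals, 5 of 9 were lower and none higher. Some lists went the same way over all other kept cells. There 9 of 12 counted glycolysis genes and 4 of 8 classical monocyte genes were higher, with none lower. Lower there were 5 of 9 homeostatic genes and 7 of 11 Nrf2 and metallothionein genes, with none higher. Of 13 TGF-beta target genes 7 were lower there and 1 higher. In the dissociation list 0 of 14 were past the fold there.

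**Figure D3:**
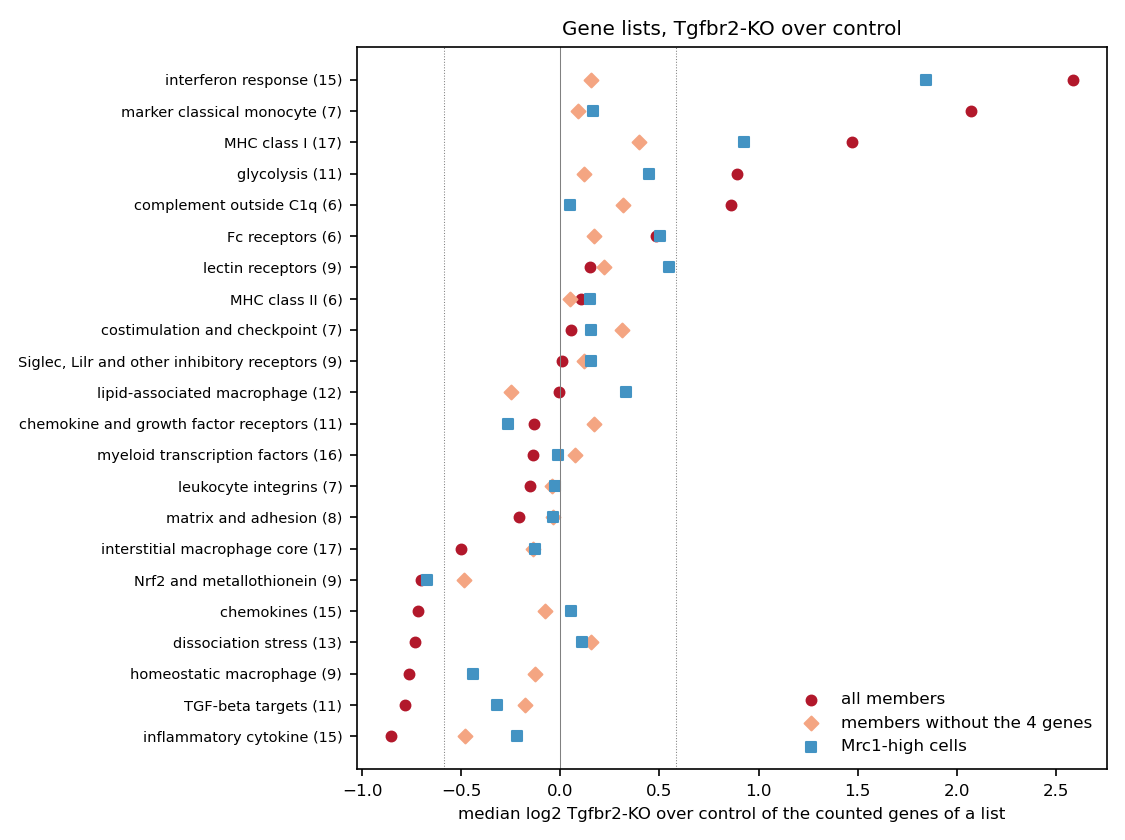
Median log2 ratio of Tgfbr2-KO over control for each gene list in all members, in members without UMIs of the 4 interferon genes and in Mrc1-high cells, with the number of genes counted in all members in parentheses and dotted lines at 1.5-fold. In all members the interferon (2.59), classical monocyte (2.07) and MHC class I (1.47) lists lie highest and the inflammatory cytokine list (-0.85) lies low; the lists of members without the 4 genes hold fewer counted genes.

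Since nearly all interferon-marked members came from 1 pool, the comparison was repeated among members with no UMI of Ly6a, Gbp2, Iigp1 or Cxcl9, a split chosen after the data had been seen. They were 71 Tgfbr2-KO members, 2.66% of kept cells, and 126 control members, 6.65% of kept cells, with near-equal median depths of 6451 and 6355.5 UMIs. Of 1457 counted, 71 (4.87%) were higher in the Tgfbr2-KO members by 1.5-fold or more and 70 (4.80%) lower. Of 1392 genes counted both here and in all members, 158 were higher in all members and 26 of them were also higher here; 190 were lower in all members and 39 were also lower here. The 4 genes were picked because they differ between the pools, so leaving out cells by them lowers the number of differences by construction, and these counts are a description. Choosing cells by the absence of 4 genes also sets the level of genes that vary with them, and it selects shallower cells in the Tgfbr2-KO pool.

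Among the unmarked members, the interferon list had 1 of 4 counted genes higher (Ifitm3) and 1 lower (Cxcl10), and the MHC class I list 3 of 13 higher (H2-Q6, H2-Q7 and H2-M3) with a median of 0.40. Ccl5 stood at 25.8 UPM in Tgfbr2-KO members and 35.6 UPM in control members. Igf1 stood at 230 and 178 UPM, Emp1 at 244 and 229 UPM and Hpgd at 131 and 119 UPM, so the lower levels of these 3 genes among all members were not seen here. Dissociation genes stood at a median of 0.16, with Hspa1a and Hspa1b higher and none of 14 lower.

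A smaller set stayed past the fold in unmarked members. Lyz1 stood at 859 UPM in Tgfbr2-KO members and 44.8 UPM in control members, in 33 and 18 cells, 19.2-fold higher (13.8 to 27.4). Lyz2 stood at 4469 and 13272 UPM. Il10 stood at 37.7 UPM in 9 Tgfbr2-KO members and 131 UPM in 31 control members, 3.47-fold lower (2.12 to 5.98), Pf4 at 361 and 850 UPM, 2.35-fold lower (2.0 to 2.78), and St18 at 69.5 and 201 UPM, 2.89-fold lower (2.0 to 4.29). Cxcl13, the B cell chemokine gene, had the lowest ratio, with 147 UPM in 6 Tgfbr2-KO members and 762 UPM in 24 control members. Higher were Hdac9, a histone deacetylase gene (183 and 41.3 UPM), the Fc receptor gene Fcgr4 (125 and 56.3 UPM) and Ccl8 (115 and 49.4 UPM). Of the inflammatory cytokine list 5 of 15 were lower (Il1a, Tnf, Nlrp3, Il10 and Ier3) and none higher.

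**Figure D4:**
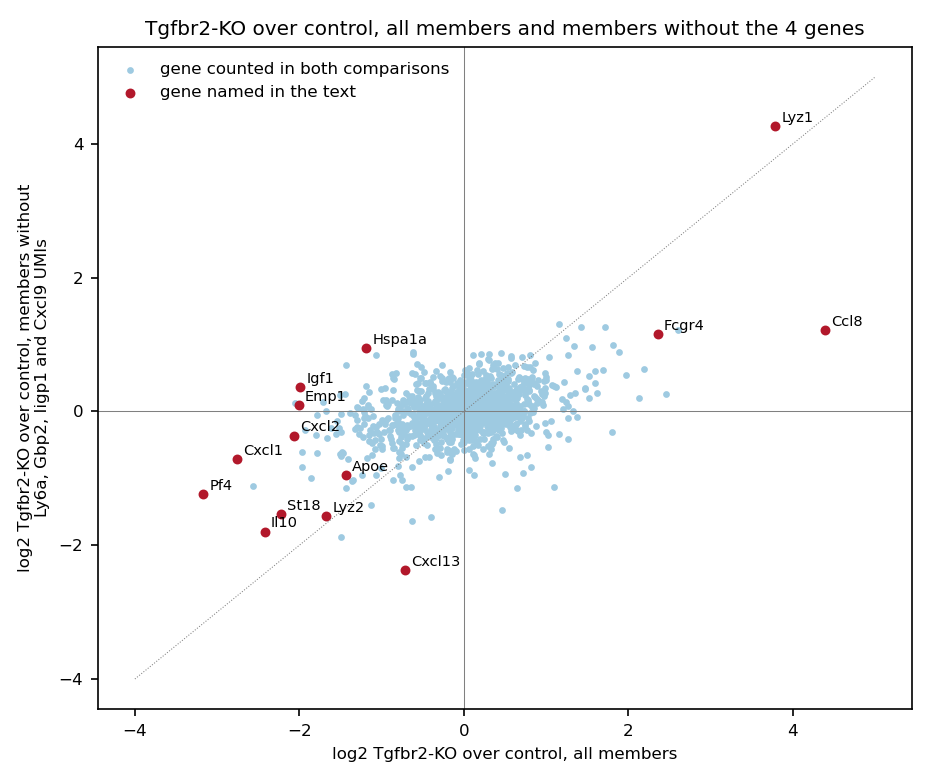
Log2 ratio of Tgfbr2-KO over control for each gene counted in both comparisons, in all members (x axis) and in members without UMIs of Ly6a, Gbp2, Iigp1 and Cxcl9 (y axis), with the dotted line at equal ratios. Lyz1, Lyz2, Il10 and St18 lie far from 0 on both axes, while Igf1 and Emp1 lie near 0 on the y axis.

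Within the Tgfbr2-KO pool, the 225 members with the 4 interferon genes and the 71 without them differed widely, and also in depth (median 13918 and 6451 UMIs). Of 1685 genes counted, 406 (24.1%) were at least 1.5-fold higher in members with the genes and 250 (14.8%) lower. The cells were split by the 4 genes, so genes that vary with them differ by construction, and these values are a description. Ccl5 stood at 1695 UPM in members with the genes and 25.8 UPM in those without, the complement gene C3 at 556 and 17.9 UPM, and Procr, the receptor gene of protein C, at 219 and 5.95 UPM. On the lower side Igf1 stood at 9.87 and 230 UPM, Mgl2, a galactose lectin gene, at 71.3 and 550 UPM, Pf4 at 43.3 and 361 UPM and the collagen gene Col14a1 at 34.1 and 256 UPM. Cx3cr1 stood at 219 and 522 UPM and Cst3 at 2857 and 6148 UPM. In the dissociation list 11 of 14 genes were lower and none higher, and the heat-shock gene Hspa1a stood at 44.2 and 492 UPM. The levels of Cd72 were close in the 2 groups, at 633 and 647 UPM, as were those of Lyz1 (814 and 859 UPM) and Lyz2 (4288 and 4469 UPM). The 15 control members with the 4 genes were too few for a like comparison; in them Ccl5 stood at 156 UPM and Pf4 at 410 UPM.

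Promoters of the higher interferon genes were read for the elements that interferon factors bind, to show what lies at these genes. RefSeq promoter sequences of GRCm38.p6, 250 bases before to 50 after a gene's start, were searched on both strands for GAAANNGAAA, the core of the interferon-stimulated response element (ISRE), and for TTCNNNGAA, the gamma-activated site (GAS). Of all 32851 promoters of this length 3.44% held the first and 8.30% the second. Of the 14 higher interferon genes 9 had an entry; 5 held the ISRE core, 3 held the GAS, and 6 held either. Of the 12 genes with the highest ratios 5 had an entry, 1 with an ISRE core and 1 with a GAS. A match is a description of the letters and not a binding site, and a list chosen for interferon induction is known to be rich in both. The promoter of Gbp2 lies at chr3:142620413-142620712 on the plus strand, with the ISRE core, here on the opposite strand, in capitals and its first base at -59 from the start. The promoter of Serpina3g lies at chr12:104235897-104236196 on the plus strand, with the GAS in capitals and its first base at -33. They are shown as 1 member of the list and 1 of the highest ratios:
Gbp2: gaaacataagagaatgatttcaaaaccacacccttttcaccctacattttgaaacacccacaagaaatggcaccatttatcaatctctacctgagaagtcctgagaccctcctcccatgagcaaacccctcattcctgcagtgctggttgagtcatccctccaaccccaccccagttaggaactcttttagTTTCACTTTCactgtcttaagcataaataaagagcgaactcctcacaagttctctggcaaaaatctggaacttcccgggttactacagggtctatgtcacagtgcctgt
Serpina3g: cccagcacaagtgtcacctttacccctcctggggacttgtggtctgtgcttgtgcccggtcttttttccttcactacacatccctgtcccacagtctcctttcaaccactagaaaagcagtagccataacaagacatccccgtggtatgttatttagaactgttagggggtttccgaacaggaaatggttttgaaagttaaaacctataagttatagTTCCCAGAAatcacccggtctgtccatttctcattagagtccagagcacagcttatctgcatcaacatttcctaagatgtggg
Gbp2 stood at 470 UPM in Tgfbr2-KO members and 38.1 UPM in control members, and Serpina3g at 139 and 9.76 UPM.

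Against the other kept cells, more genes were lower in members than higher. Of 1458 genes counted in both pools, with the 11 genes of the rule left out, 8 (0.549%) were at least 1.5-fold higher in members in both pools and 108 (7.41%) lower. The members were chosen on RNA counts of the same cells, Mrc1 among them, so this is a description with no test. The higher genes included Cxcl9, Zmynd15, Gatm, Acsl1 (fatty acid activation), Ms4a7, Cd52 and Slamf9 (surface proteins of leukocytes). Zmynd15, a zinc finger protein gene (ENSMUSG00000040829, chromosome 11, 70459433 to 70466204), stood at 169 UPM in Tgfbr2-KO members and 47.8 UPM in other Tgfbr2-KO cells, and at 150 UPM in control members and 56.1 UPM in other control cells. Gatm, whose enzyme begins creatine synthesis, stood at 251 and 117 UPM in the Tgfbr2-KO pool and 186 and 107 UPM in the control pool. Ms4a7, a membrane gene of interstitial macrophages, stood at 779 and 435 UPM in the Tgfbr2-KO pool and 1102 and 661 UPM in the control pool. Cxcl9 stood at 308 and 25.3 UPM in the control pool, where 3 members held 97.5% of it.

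The lower genes included those of CD206+ interstitial macrophages, which go with Mrc1. All 6 counted genes of that list were lower in members in both pools: Cd36, Pf4, Folr2, Cbr2, F13a1 and Selenop. Folr2, a folate receptor gene, stood at 4.94 UPM in Tgfbr2-KO members and 157 UPM in other Tgfbr2-KO cells, and at 12.7 UPM in control members and 141 UPM in other control cells. Retnla, a gene of alternatively activated macrophages, stood at 6.31 and 1108 UPM in the Tgfbr2-KO pool and at 1.95 and 201 UPM in the control pool. The matrix protease gene Mmp9 stood at 14.3 and 156 UPM in the Tgfbr2-KO pool and at 0.976 and 109 UPM in the control pool, where 1 UMI was found in members. The chemokine genes Ccl6, Ccl7, Ccl2 and Ccl8 and the metal and haem response genes Mt1, Mt2 and Hmox1 were lower too.

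**Figure D5:**
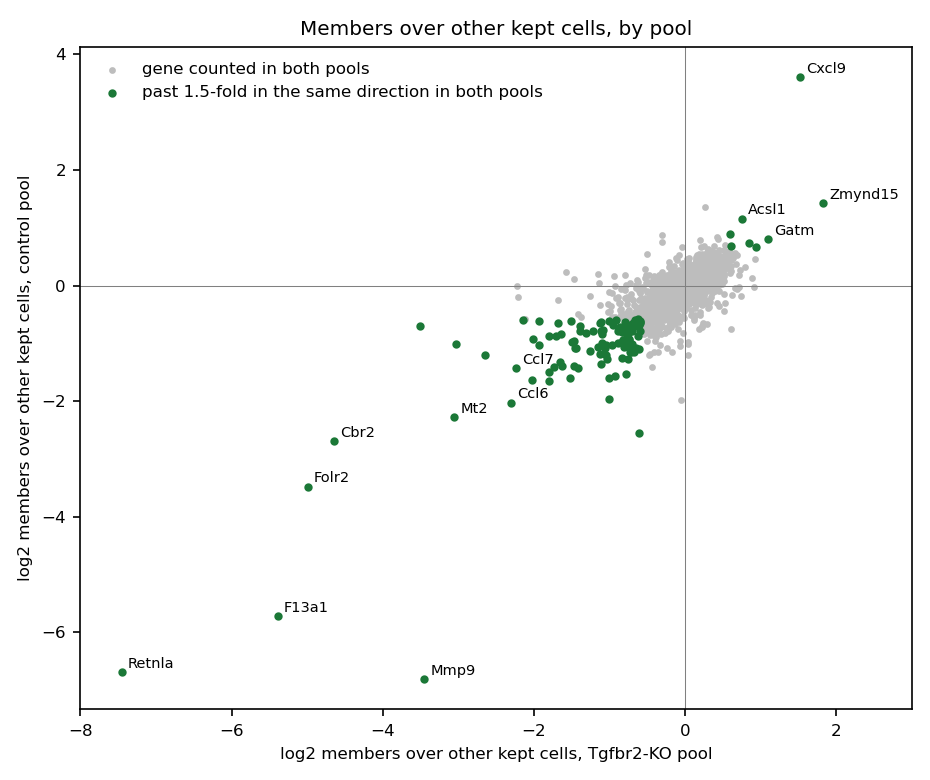
Log2 ratio of members over other kept cells for each counted gene, in the Tgfbr2-KO pool (x axis) and in the control pool (y axis), with genes past 1.5-fold in the same direction in both pools in green. Cxcl9, Zmynd15, Gatm and Acsl1 lie at the upper right and Retnla, F13a1, Folr2 and Mmp9 at the lower left.

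Among narrower groups, members stood farthest from Mrc1-high cells by the number of genes past the fold. Marker-low and Mmp cells share the Mrc1 limit of members and Mrc1-high cells do not, so this order is partly set by how the groups were chosen. Against Mrc1-high cells, 52 of 1535 genes (3.39%) were higher in both pools and 232 (15.1%) lower. Against marker-low cells 15 of 1316 (1.14%) were higher and 16 (1.22%) lower: Zmynd15 stood at 169 and 25.3 UPM in the Tgfbr2-KO pool and 150 and 50.7 UPM in the control pool, Ms4a7 at 779 and 214 UPM and at 1102 and 592 UPM, and Cx3cr1 at 261 and 107 UPM and at 385 and 255 UPM. Lower were the monocyte gene Plac8, at 255 and 1347 UPM in the Tgfbr2-KO pool and 42.0 and 139 UPM in the control pool, and Thbs1, at 116 and 278 UPM and at 9.76 and 148 UPM. Marker-low cells thus held more RNA of both genes than members in both pools.

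Against Mmp cells, 23 of 1335 genes (1.72%) were higher and 20 (1.5%) lower. Cxcl13 stood at 455 UPM in Tgfbr2-KO members and 40.1 UPM in Tgfbr2-KO Mmp cells, and at 748 and 187 UPM in the control pool. Apoe stood at 4286 and 2253 UPM in the Tgfbr2-KO pool and 11595 and 6141 UPM in the control pool. Ms4a7 was inside the fold here, at 779 UPM in Tgfbr2-KO members and 670 UPM in Tgfbr2-KO Mmp cells. In control members and control Mmp cells Ms4a7 stood at 1102 and 1017 UPM, so its high level was shared with Mmp cells. Zmynd15 was not among the genes with the highest ratios against Mmp cells. The adhesion receptor gene Adgrl3 was lower in members, at 3.29 and 151 UPM in the Tgfbr2-KO pool and 11.7 and 146 UPM in the control pool, as was Mgl2, at 137 and 778 UPM and at 288 and 801 UPM.

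Members with Cd207 or H2-M2 and members with Cd72 or Lilra5 alone differed past the fold in few genes. Of 1263 counted, 9 (0.713%) were higher in the first kind in both pools and 4 (0.317%) lower. Vcam1, a leukocyte adhesion gene, stood at 332 UPM in Tgfbr2-KO members with Cd207 or H2-M2 and 141 UPM in those with Cd72 or Lilra5 alone, and at 198 and 83.1 UPM in control members. Zmynd15 stood at 259 and 124 UPM in the Tgfbr2-KO pool and 198 and 106 UPM in the control pool, and the cystine transporter gene Slc7a11 at 207 and 87.6 UPM and at 172 and 92.6 UPM. Ifitm3, an antiviral gene, was lower in the first kind, at 828 and 1317 UPM in the Tgfbr2-KO pool and 131 and 565 UPM in the control pool.

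Of 1502 genes counted both in members and in the rest of the cells, 0 were past 1.5-fold between the genotypes in opposite directions. Some genes past the fold in members had a ratio of opposite sign, inside the fold, in other cells: Mgl2 stood at 137 UPM in Tgfbr2-KO members and 288 UPM in control members, against 611 and 433 UPM in other Tgfbr2-KO and control cells, and Hspa1a at 106 and 242 UPM in members, against 293 and 223 UPM in other cells. Ccl5 stood at 1464 and 53.7 UPM in Tgfbr2-KO and control members, against 420 and 69.3 UPM in other Tgfbr2-KO and control cells. Pf4 stood at 87.2 and 784 UPM in members, against 993 and 1278 UPM in other cells, and Il10 at 21.1 and 113 UPM in members, against 82.5 and 118 UPM in other cells. Whether these ratios differ between members and other cells could not be tested with 1 pool per genotype.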

How the data were processed

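Lung cells of 2 genotype pools were measured in 1 droplet 3′ RNA library and 1 hashtag library. Cell Ranger 8.0, Seurat 5.1.0 and GRCm38 are named in the submitters' processing notes, and the matrix header gives Cell Ranger 8.0.0; the step done with Seurat and the annotation version are not given in the sources used here. The deposited matrix holds the count of UMIs per gene and barcode for 22597 genes, 3 hashtags and 1172636 barcodes, unfiltered and without normalization. For each state of 4887 called cells, a fraction of posterior probability is listed, per the file headers. The hashtag levels in the same deposited table are log10 values, of the matrix count plus 1 (largest difference 1.33e-15).

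Cells assigned to 1 hashtag (2738 Tgfbr2-KO and 1933 control) were kept with at least 1000 UMIs, 500 genes and at most 10% mitochondrial UMIs; the kept cells held 30729204 and 16298452 UMIs, and the members 3646294 and 1024152. Blank (54), unassigned (66) and multiplet (96) barcodes were left out. Doublets within a pool cannot be seen this way: 102 were expected, 2.18% of assigned cells, and no doublet caller was run.

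UMIs were summed over cells of a pool per 1000000 (UPM). Intervals are exact at 95%: Poisson for levels, Clopper-Pearson for shares, conditional binomial for ratios. Where a group had no UMI, 3 counts over the group served as floor, 0.823 UPM in Tgfbr2-KO members and 2.93 UPM in control members. No test was run. The scripts were tested on simulated data. For each comparison, named genes are the 12 highest and 12 lowest ratios among counted genes without mitochondrial, ribosomal, sex-linked, unnamed and rule genes (15 highest for members against others), with marker genes and up to 4 members of each list. The members and the 33 lists were chosen with earlier results of these data known. Alternatives covered the cell filter, hashtag probability, the Mrc1, marker and C1q terms of the rule, and thinning (seed 1). The Mmp and Fn1 limits were not varied. Further alternatives covered the gene minimum, the fold, scaling, weighting cells equally and free RNA. Free RNA was taken from 70147 barcodes of 10 to 100 UMIs, at up to 7.36% of UMIs in Tgfbr2-KO and 8.73% in control members. Chromosome positions are RefSeq GRCm38.p6, matched by symbol. Python 3.11.15, numpy 2.4.6, scipy 1.17.1, pandas 2.3.3 and matplotlib 3.10.9 were used.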

Additional observations from a re-analysis of the deposited data

How the results depend on the processing

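No paired analysis was possible because there was 1 pool per genotype. The share of members in Tgfbr2-KO and control cells was 6.54% and 3.74% with Mrc1 of 0, 9.39% and 5.59% with a marker sum of at least 3, 3.40% and 3.43% with a Cd207 or H2-M2 UMI required, and 14.3% and 11.9% in cells thinned to 3000 UMIs. Genes higher and lower in Tgfbr2-KO members (309 and 190) were 170 and 108 in thinned cells, with members chosen again by the rule. They were 2494 and 2050 with no minimum beyond 1 UMI in each group, and 862 and 440 with a minimum of 30 UMIs and 30 UPM. At 2-fold they were 134 and 86. Genes higher in members than in other cells (8) were 15, 13 and 17 under the 3 stricter rules for members in the order above. They were 218 with no minimum, 23 with the minimum of 30 and 2 at 2-fold, and the lower ones (108) were 869, 279 and 32.

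Without the members that had a UMI of the 4 interferon genes, an alternative chosen after seeing the data, members were 2.66% of Tgfbr2-KO cells, 71 and 70 genes were higher and lower in Tgfbr2-KO members, and 13 were higher than in other cells. The log2 ratio of Tgfbr2-KO over control then changed sign for Ccl5 (-0.46), Ly6c2 (-1.53, on 6 UMIs), Hpgd (0.13), Emp1 (0.095) and Igf1 (0.37) and for the median of the dissociation list (0.16). Members over other Tgfbr2-KO cells changed sign for Cd52 (-0.22) and Aif1 (-0.21). Under the other 15 alternatives, none of 390 ratios of 26 named genes between genotypes changed sign and 389 stayed past 1.5-fold. Most of these genes were named for their high or low ratios in the same data, so both counts were largely set in advance. Of the 390 ratios, 76 lay outside the main counting interval. Of 163 medians of lists past the fold, 143 stayed past it and 1 changed sign, that of complement outside C1q with no gene minimum (-0.058). For members over others, 0 of 690 values of ratios past the fold changed sign, and 143 of all 810 lay outside the main interval.

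Depth limits the control members most: with 1024152 UMIs, 3 counts are 2.93 UPM there, and ratios against a control level at or under it, such as that of Cfb, rest on few molecules. Differences among the 5 mice of a pool, and between sorts, cannot be told apart from the genotype.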
